A study of Mus musculus with 4 samples.

Results

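AR7 and CA77 are small molecules developed to raise chaperone-mediated autophagy (CMA), and the comparison described here sets a culture of mouse fibroblasts given CA77 directly against a culture given AR7, without the untreated culture as a reference. This pair of compounds, the only pair compared, was matched in concentration and time. Values are CA77 minus AR7 on the log2 scale, so that a positive value is a higher level with CA77 and a negative value a higher level with AR7. A gene entered the comparison when at least 1 of its probes was well above background on both arrays by the scanner software's own mark and lay in grid rows over 160 of the array. This gave 14064 genes of the 36983 gene names on the array, of which 8896 had a current gene symbol.

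The series holds 4 one-colour arrays of NIH-3T3 cells, an established line of mouse embryo fibroblasts that the labels call wild type. The cells were grown to confluence in serum-supplemented medium with antibiotics and collected as 1 culture per array. The AR7 culture received 20 µM AR7 for 24 h, the CA77 culture received 20 µM CA77 for 24 h, another culture received 20 µM CA39 for 24 h, and the control is labelled as untreated. The compounds were dissolved in DMSO, which all 3 treated cultures share and which the control's label does not mention, so levels on the control array are given below only as a description. With 1 array per compound there was no replicate check, no test was run, and a difference between the arrays cannot be told apart from a difference between cultures. In bulk RNA, fewer cells of a kind and less RNA per cell cannot be told apart. As markers of the line, 9 of 10 fibroblast genes were above background on each array, with Pdgfrb below it on both. Of 5 epithelial genes 3 were above it on both (Krt8, Krt18 and Krt5, all at log2 levels of 8.05 or less), while Epcam and Cdh1 were not. Krt8, Krt18 and Krt5 were lower with CA77, by −0.32, −0.59 and −0.18 (log2 difference). Above background on AR7 and on CA77 were 1 and 3 of 4 adipocyte markers, 2 and 3 of 3 neuron markers, 2 and 3 of 3 blood cell markers, 3 and 3 of 3 endothelial markers and 2 and 2 of 3 muscle markers. The brightest of these were Snap25 (11.88 and 11.49), Kdr (11.84 and 11.70), Fabp4 (10.49 and 10.82) and Cd3e (10.36 and 10.04). Their part in the results was not tested.

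CMA delivers single cytosolic proteins into lysosomes. The chaperone Hspa8 recognises a short motif in the substrate and the receptor Lamp2 takes the protein through the lysosomal membrane, while the retinoic acid receptor Rara restrains the pathway. Ncor1 is a corepressor that binds Rara. Much of what is described below concerns another system, the enzymes that conjugate reactive compounds with glutathione and keep glutathione reduced. Many of these enzymes are known targets of the transcription factor NRF2 (gene Nfe2l2), which binds antioxidant response elements when electrophiles or oxidants inactivate its inhibitor. Another sensor of foreign compounds is the aryl hydrocarbon receptor, a ligand-activated factor whose known targets include the cytochrome P450 genes Cyp1a1 and Cyp1b1.

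Both arrays came from 1 slide, AR7 from slide row 2 and column 1 and CA77 from row 2 and column 3, and they were read in different scans, AR7 in scan 1 and CA77 in scan 2. Compound, scan and slide column therefore cannot be told apart. Before normalization the CA77 array was dimmer, with a median net signal of 138 against 167.5 scanner units, but more of its spots were well above background, 62.3% against 53.8%. Of the probes in rows over 160, 16929 were above background on both arrays, 2831 on the CA77 array alone and 142 on the AR7 array alone. The probes seen on 1 array alone were dim, with medians of 6.55 and 7.09 (log2 level) respectively beside 10.09 for probes seen on both, and they were left out of all results below.

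The arrays resembled each other closely. Over the 14064 genes the differences had a median of −0.02 and an SD of 0.21 (log2), 55.1% lay below 0, and 90.9% were within 1.25-fold. At 1.5-fold, 50 genes were higher with CA77, 0.356% of those measured, and 121 were lower, 0.86%. The split depended on the scaling: in the deposited table, which is not scaled between arrays and has a median difference of −0.26, 30 genes were higher and 1286 lower, and 86 and 282 after that median was subtracted. With quantile normalization at 1.25-fold the counts were 418 higher, 2.97%, and 860 lower, 6.11%. The genes past 1.5-fold were mostly dim. Of the 3223 genes with a mean level of 8 or less (log2), 96 were past 1.5-fold, while of the 2381 genes above 14 only 4 were. All 171 rested on a single spot per array, and 35 of them had another gene past 1.5-fold within 2 grid cells.

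**Figure D1:**
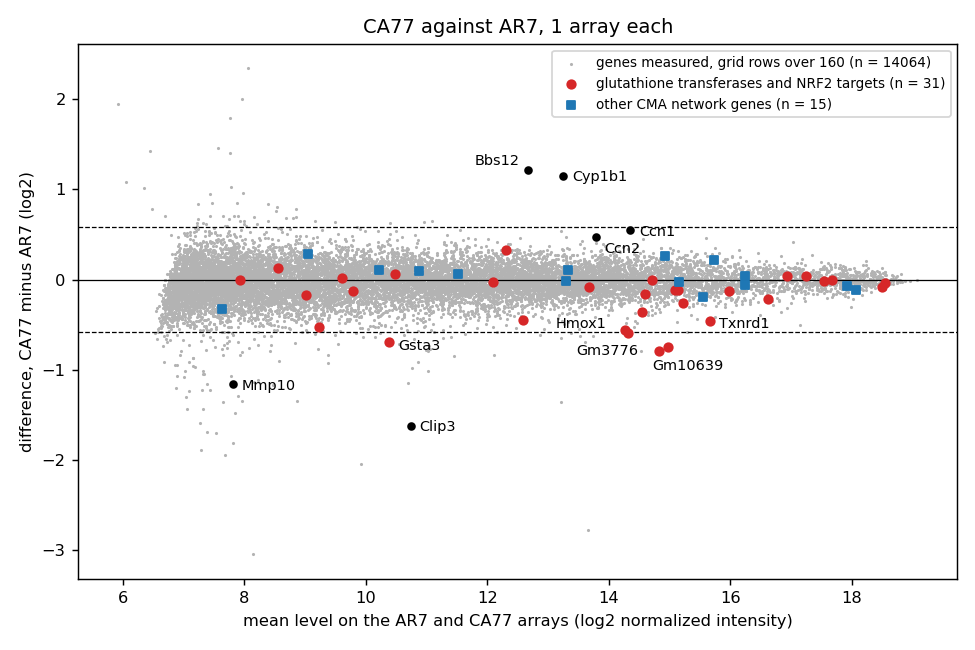
Difference between CA77 and AR7 (log2, vertical axis) against the mean level on both arrays (log2 normalized intensity, horizontal axis) for the 14064 genes in grid rows over 160; each point is a gene by its brightest probe and dashed lines mark 1.5-fold. Spread narrows from an SD of 0.27 at levels of 8 or less to 0.13 above 14, and among bright genes Cyp1b1 (1.15) lies above the upper line while Gm10639 (−0.75) and Gm3776 (−0.79) lie below the lower one.

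Place on the array mattered for what could be read. In grid rows 1 to 160 the SD of the differences was 0.36 and 4.92% of genes were past 1.5-fold, against 0.21 and 1.22% in rows over 160. By blocks of 32 rows the percentage was 6.70 in rows 1 to 32, 6.19 in rows 97 to 128 and 0.70 in rows 353 to 384. The row is given below for a named probe in rows 1 to 160, except for probes printed 10 times, whose spots lie across the array.

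**Figure D2:**
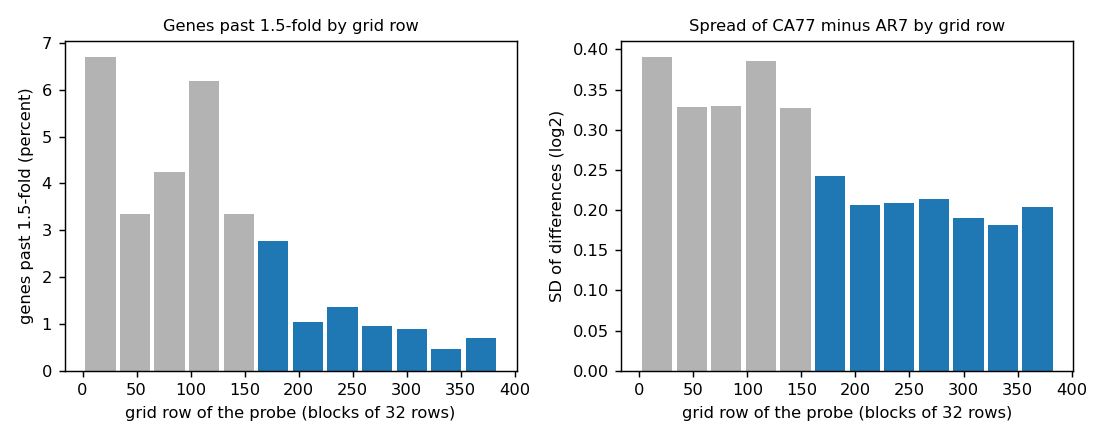
Percent of genes past 1.5-fold (left) and SD of the CA77 minus AR7 differences (log2, right) by grid row of the probe in blocks of 32 rows; blue bars are rows over 160 and grey bars rows 1 to 160. Rows 1 to 32 reach 6.70% and an SD of 0.39, while rows 321 to 352 hold 0.46% and an SD of 0.18.

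Probes printed 10 times on each array give the spread of a difference over repeat spots, not the error of a gene's value. Among 266 such probes the median SD of the difference over repeat spots was 0.07 (log2), rising to 0.15 for levels of 8 or less. Between these probes the differences had an SD of 0.15, or 0.12 for levels above 12. None of the 266 was past 1.5-fold and 9 were past 1.25-fold. Different probes of a gene often disagreed. Over the 2246 genes with at least 2 measured probes in rows over 160, the differences of the 2 brightest probes had a Pearson r of 0.23, given as a description across genes that share the same 2 arrays. Of 195 genes whose brightest probe was past 1.25-fold, the next brightest probe had the same sign in 137 and was itself past 1.25-fold the same way in 32.

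**Figure D3:**
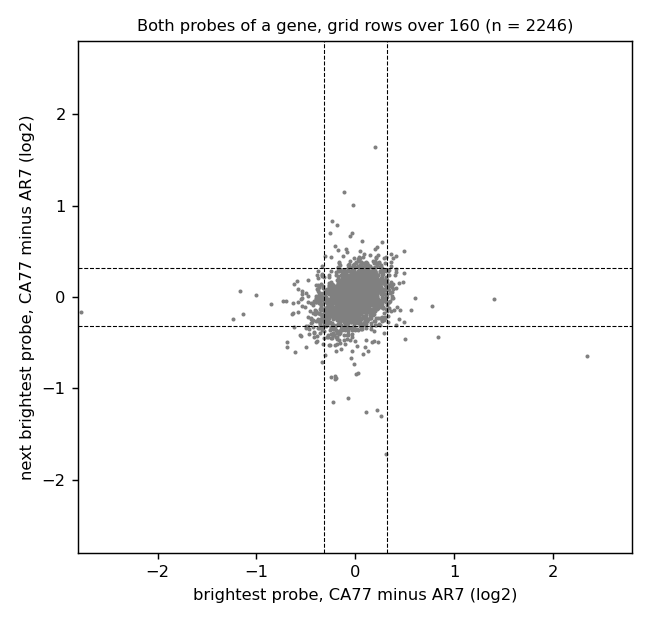
Difference between CA77 and AR7 (log2) of the brightest probe of a gene (horizontal axis) against that of its next brightest probe (vertical axis) for 2246 genes in grid rows over 160; dashed lines mark 1.25-fold. Most genes lie between the lines on both axes, and points far from 0 on the horizontal axis mostly lie near 0 on the vertical axis.

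The alpha class of glutathione transferases was lower with CA77 throughout. These enzymes attach glutathione to electrophiles and to products of lipid peroxidation. All 7 measured probes of 5 alpha-class genes differed the same way, by −0.92 to −0.54 (log2 difference), so that the AR7 level was 1.45 to 1.90 times the CA77 level. These genes have near-identical copies, and which copy a probe measured is uncertain. Gm10639, a predicted alpha-class gene, had a level of 7.49 untreated, 15.35 with AR7, 7.75 with CA39 and 14.60 with CA77. Gm3776, another predicted member of the class, read 7.58 untreated, 15.22 with AR7, 7.73 with CA39 and 14.43 with CA77. Both genes were thus high on the AR7 and CA77 arrays and low on the other two, and the AR7 level was 1.68 times the CA77 level for Gm10639 and 1.73 times for Gm3776. A second probe of Gm10639, in row 75, gave the −0.92.

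The other alpha-class genes were also highest on AR7 and next highest on CA77. Gsta3, known in mice for detoxifying aflatoxin, read 7.06 untreated, 10.73 with AR7, 7.0 with CA39 and 10.03 with CA77 by its brighter probe. Its second probe read 10.11 on AR7 and 9.56 on CA77, so that both probes were lower with CA77, by −0.70 and −0.55. Gsta3 was 1 of 10 genes with a symbol whose probes in rows over 160 were together past 1.25-fold lower. Gsta4, which prefers the lipid peroxidation product 4-hydroxynonenal, read 9.83 untreated, 14.56 with AR7, 11.01 with CA39 and 14.02 with CA77 over its 9 repeat spots. Its difference of −0.54 had an SD of 0.08 over spots. Gsta2, in row 26, read 6.61 untreated, 14.11 with AR7, 6.61 with CA39 and 13.45 with CA77, a difference of −0.66. On all 5 genes the gap between AR7 and CA77 was small beside the gap between either and the untreated array.

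Over the whole glutathione transferase list of 25 genes, 22 were measured in all grid rows, 19 of these were below 0, and the median was −0.18 (log2 difference) beside −0.02 over all 21607 genes. At 1.25-fold 6 were lower and 1 was higher with CA77, where all rows held 7.26% lower and 3.92% higher. The 6 lower genes were the 5 alpha-class genes and Mgst1. In rows over 160, 15 were measured, 12 were below 0 and the median was −0.12. The microsomal transferase Mgst1 read 14.73 on AR7 and 14.37 on CA77 with 1 probe and 14.70 and 14.31 with the other, and both were lower with CA77 by −0.36 and −0.39. Mgst3 went the other way. Its probes read 12.15 on AR7 and 12.47 on CA77, and 11.98 and 12.34, differences of 0.33 and 0.36, with the second in row 84. The abundant pi-class gene Gstp2 had 17.67 on both arrays (−0.01), and the mu-class genes Gstm1, Gstm2 and Gstm3 had differences of −0.08, −0.12 and −0.03 by their brightest probes, with −0.34 by the second probe of Gstm1.

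Known NRF2 targets leaned the same way. All 28 genes of the list were measured in all grid rows, with a median of −0.17 (log2 difference); 23 were below 0, 11 were past 1.25-fold lower and 0 were past 1.25-fold higher. Over all genes of all rows 54.2% were below 0, 7.26% were past 1.25-fold lower and 3.92% higher. In rows over 160 alone, 16 were measured with a median of −0.10, 12 were below 0, 4 were past 1.25-fold lower and none higher. The mRNA of NRF2 itself, Nfe2l2, differed in the opposite direction, with 14.79 on AR7 and 15.06 on CA77 (0.26).

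Hmox1, which encodes the haem-degrading enzyme haem oxygenase 1, read 13.65 untreated, 14.61 with AR7, 14.86 with CA39 and 14.02 with CA77. Its second probe, in row 15, had 10.94, 11.81, 12.11 and 11.19 in the same order. Both probes were lower with CA77, by −0.59 and −0.62, and Hmox1 was the single NRF2 target past 1.5-fold in rows over 160. The CA39 level of Hmox1 was the highest of the 4 arrays by both probes. Gclm, the regulatory subunit of the enzyme that makes the first step of glutathione synthesis, read 11.35 untreated, 12.29 with AR7, 11.31 with CA39 and 11.53 with CA77 (−0.75, row 73). Its partner Gclc, the catalytic subunit, had 14.48 on AR7 and 14.15 on CA77 (−0.33, row 33).

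Enzymes that supply NADPH or use it to reduce thioredoxin and glutathione gave further members. Txnrd1, thioredoxin reductase, read 15.25 untreated, 15.89 with AR7, 15.07 with CA39 and 15.43 with CA77 (−0.46). G6pdx, the first enzyme of the pentose phosphate pathway, had 15.50 on AR7 and 15.06 on CA77 (−0.43, row 76), and Pgd, the next NADPH-producing enzyme of that pathway, had 15.08 and 14.61 (−0.47, row 7). The later steps of the pathway, Taldo1 and Tkt, had differences of −0.02 and −0.12. Slc7a11, the cystine importer that feeds glutathione synthesis, had 8.41 on AR7 and 7.31 on CA77 (−1.11) with a single spot in row 16 at a low level.

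Transport and other protective functions were also represented. The export pump Abcc4 read 11.87 untreated, 12.80 with AR7, 11.86 with CA39 and 12.36 with CA77 (−0.45). Osgin1, an oxidative stress-induced growth inhibitor, had 9.50 on AR7 and 8.98 on CA77 (−0.52), and the CA77 level was close to the untreated level of 9.11. Blvrb, a biliverdin reductase, had 15.47 on AR7 and 15.06 on CA77 (−0.40, row 1).

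Some other NRF2 targets stood higher on both compounds' arrays than on the untreated array and differed between the compounds by 0.12 or less. The repeat-spot SD was 0.06 for bright probes. Nqo1, a quinone reductase, read 10.94 untreated, 13.19 with AR7, 11.31 with CA39 and 13.23 with CA77 (0.04, row 15). Taldo1 read 17.13 on the untreated array, 17.56 on AR7 and 17.54 on CA77 (−0.02), and Prdx1, a peroxiredoxin that removes peroxide, read 16.53, 16.91 and 16.95 (0.04), with −0.12 by its second probe. Srxn1, which repairs over-oxidised peroxiredoxins, had 14.39 on the untreated array, 15.08 on AR7 and 14.97 on CA77 (−0.11, row 115). Abcc1 (−0.28, row 64), Ephx1 (−0.22 and −0.21) and Gsr (−0.16 and −0.24) were also above the untreated array on both but differed by more. Over the whole list the differences ran from −1.11 for Slc7a11 to 0.07 for Cbr1, a carbonyl reductase.

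Aldh3a1, an aldehyde dehydrogenase regulated by the aryl hydrocarbon receptor and by oxidants, read 11.96 untreated, 15.95 with AR7, 11.99 with CA39 and 15.54 with CA77 (−0.41). For a slightly brighter probe in row 157 the difference was −0.26. As for the alpha-class transferases, AR7 was the highest array and CA77 the next by both probes.

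**Figure D4:**
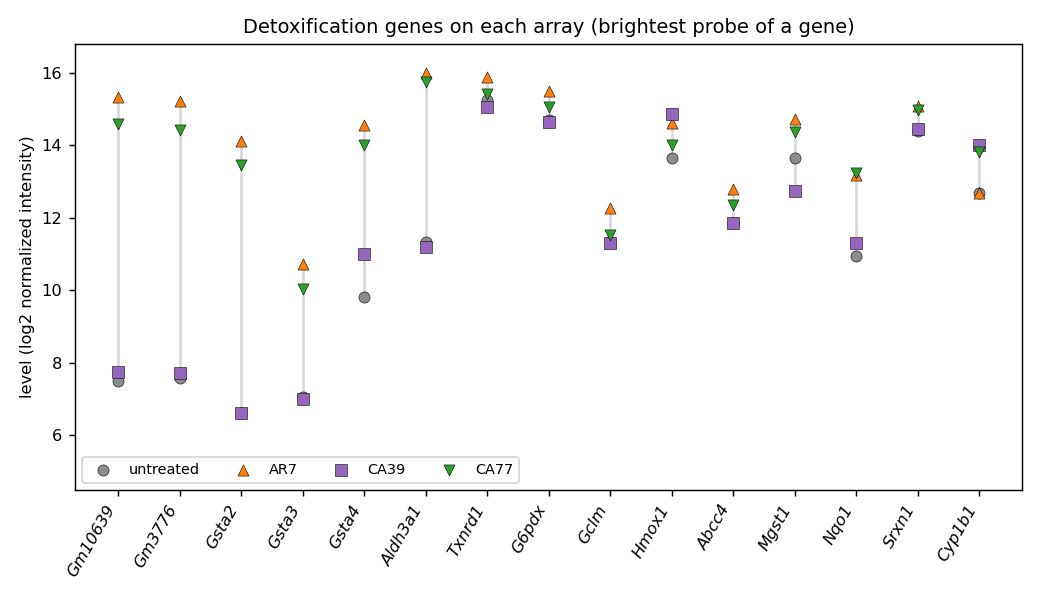
Level (log2 normalized intensity, vertical axis) on the untreated, AR7, CA39 and CA77 arrays for 15 detoxification genes, each by its brightest measured probe in any grid row; each marker is 1 array, with no replicate, and grey lines span the 4 arrays. For the alpha-class genes and Aldh3a1 the AR7 marker stands just above the CA77 marker and both lie far above the untreated and CA39 markers, whereas Cyp1b1 is highest on CA39 and CA77.

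Promoters of 3 of these genes are shown so that the core sequence of the antioxidant response element can be seen in place. The 250 bases before the transcription start were taken from RefSeq (GRCm38.p6) and searched on both strands for the core of the antioxidant response element, TGACNNNGC, shown in capitals, on the reverse strand as its complement. Of 32851 promoters, 10.2% hold this core, or 11.5% of 27025 genes. Of the 24 NRF2 targets of the list with a promoter sequence, 5 hold it. Gsta3 is not on that list, and all 3 promoters were chosen because they hold the core. Counted from the transcription start, the core begins at −121 in the Gsta3 sequence, −134 in Gclm and −57 in G6pdx.
Gsta3, chr1:21240335-21240584, plus strand: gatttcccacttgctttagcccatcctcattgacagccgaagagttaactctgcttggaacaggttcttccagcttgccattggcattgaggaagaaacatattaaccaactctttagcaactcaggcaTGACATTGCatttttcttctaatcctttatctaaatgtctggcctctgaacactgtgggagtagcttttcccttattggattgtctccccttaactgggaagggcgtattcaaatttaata
Gclm, chr3:122245307-122245556, plus strand: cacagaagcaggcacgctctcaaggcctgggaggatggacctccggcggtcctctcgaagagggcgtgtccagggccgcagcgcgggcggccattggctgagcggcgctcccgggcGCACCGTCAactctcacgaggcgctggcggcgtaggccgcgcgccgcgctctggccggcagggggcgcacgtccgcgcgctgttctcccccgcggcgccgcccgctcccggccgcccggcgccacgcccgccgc
G6pdx, chrX:74428881-74429130, minus strand: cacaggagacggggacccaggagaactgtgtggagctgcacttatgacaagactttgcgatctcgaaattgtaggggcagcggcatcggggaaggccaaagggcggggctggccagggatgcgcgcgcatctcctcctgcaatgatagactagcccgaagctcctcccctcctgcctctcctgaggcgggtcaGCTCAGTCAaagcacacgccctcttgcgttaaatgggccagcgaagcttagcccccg
A match to these letters is a description of the sequence and shows no binding.

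Cyp1b1, the cytochrome P450 that oxidises polycyclic hydrocarbons and oestrogens, was the brightest gene in rows over 160 past 1.5-fold higher with CA77. It read 12.68 untreated, 12.68 with AR7, 14.03 with CA39 and 13.83 with CA77, a difference of 1.15 in row 344, so that the CA77 level was 2.23 times the AR7 level. AR7 and the untreated array were thus level, and CA39 and CA77 both stood above them. The value rests on 1 spot per array, and the repeat spots of bright probes gave an SD of 0.06. Other genes of the receptor's pathway did not share this size of difference. Tiparp, a target that feeds back on the receptor, had 13.12 on AR7 and 13.40 on CA77 (0.29) with its brighter probe and 11.90 and 11.93 (0.03) with a probe in row 137. The receptor gene Ahr had 12.98 and 12.68 (−0.30, row 20), and its partner Arnt had 12.32 and 12.55 (0.23) with its brighter probe and 10.67 and 10.60 (−0.07) with the other. Ahrr, the repressor of the receptor and one of its targets, and Cyp1a1 were not well above background on any of the 4 arrays. Of 6 measured genes of this list, Cyp1b1 alone was past 1.25-fold higher and 0 were past 1.25-fold lower in all rows, where 3.92% and 7.26% of all genes were, and in rows over 160 Aldh3a1 was past 1.25-fold lower by its probe there.

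Genes of the CMA network had small differences between the compounds. All 18 members were measured in all grid rows, none was past 1.25-fold in either direction, beside 3.92% higher and 7.26% lower of all genes, and the median was 0.08 (log2 difference) with 5 below 0. In rows over 160, 15 were measured with a median of 0.04. The receptor Lamp2 had 15.18 on AR7 and 15.26 on CA77 (0.08, row 136) and 13.29 and 13.28 (−0.01, row 354). The probes are matched to the gene and do not distinguish its isoforms here, of which the CMA receptor is LAMP2A. The chaperone Hspa8 had 17.94 on AR7 and 17.88 on CA77 (−0.07) by its brightest probe, with 0.05 and 0.10 by its other probes. Rara had 13.27 and 13.38 (0.11) with 1 probe and 10.95 and 11.11 (0.17) with the other. Its corepressor Ncor1 had 11.49 on AR7 and 11.56 on CA77 (0.07), with 0.08 and 0.04 for its other probes. The chaperones and cochaperones Hsp90aa1, Hsp90ab1 and Dnajb1 had differences of 0.18 (row 149), 0.05 (row 50) and 0.22.

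The kinases and phosphatases that act on CMA at the lysosome varied within the same range of under 1.25-fold. Akt1, a kinase that restrains CMA, had −0.17 over 2 spots with an SD of 0.03 (row 34), Akt2 had −0.03, 0.23 and −0.07 over 3 probes, and Rictor, a subunit of the kinase complex that activates them, had 0.10. The phosphatase Phlpp1, which opposes Akt, had 8.90 on AR7 and 9.18 on CA77 (0.28). The GTPase Rac1 had 0.04 and −0.09, the elongation factor Eef1a1 had 0.04 (row 120) and −0.11, and Rab11a, a GTPase of recycling endosomes, had 0.18 (row 54). Gfap, a filament protein and modulator of the translocation complex, had the lowest difference of the network, 7.80 on AR7 and 7.48 on CA77 (−0.32), at a level where repeat spots had an SD of 0.15. Ctsa, the protease that cleaves Lamp2, had −0.06, and the factor Nfatc1 had 0.10 and 0.04.

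Retinoid genes were considered because the compounds were designed on the retinoic acid receptor. Of 23 genes 17 were measured in all rows, with a median of −0.13 (log2 difference), and 13 were below 0. Stra6, the cell-surface importer of retinol, read 13.67 untreated, 13.63 with AR7, 12.45 with CA39 and 13.25 with CA77 (−0.38). Rxrg, a partner of retinoic acid receptors, had 11.84 on AR7 and 11.43 on CA77 (−0.40). A second Rxrg probe read 6.26 and 6.35 and was not above background on either array. Stra6 and Rxrg were past 1.25-fold lower by the brighter values. Rarg had −0.24 and Rxrb −0.12, and the retinoid-induced transglutaminase Tgm2 had −0.28 and −0.18. For Rarb, a known target gene of retinoic acid, the AR7 array was not above background, and no difference is given.

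Lysosomal genes gave no member past 1.25-fold in either direction among 31 measured in all rows, with a median of 0.01. Macroautophagy, the vesicle-based form of autophagy, had 30 genes measured with a median of 0.01, of which 4 were past 1.25-fold higher and 0 lower, beside 3.92% and 7.26% of all genes. Ulk2, a kinase that starts autophagosome formation, had 9.68 on AR7 and 10.19 on CA77 (0.51, row 146) and 8.84 and 9.20 (0.36) with its second probe. Rb1cc1, a scaffold of the same kinase complex, had 11.32 and 11.66 (0.34) and 10.97 and 11.29 (0.33, row 81). The untreated array read 11.60 and 11.28 for the probes of Rb1cc1, close to CA77. For Ulk2 it read 10.13 and 8.88, close to CA77 by the first probe and to AR7 by the second. The other 2 were the cargo receptor Nbr1 (0.33) and the mTOR inhibitor Tsc1 (0.40, row 38). Ulk1, the relative of Ulk2, had 0.15, and Sqstm1, a cargo receptor that is also an NRF2 target, had −0.18 in row 26.

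**Figure D5:**
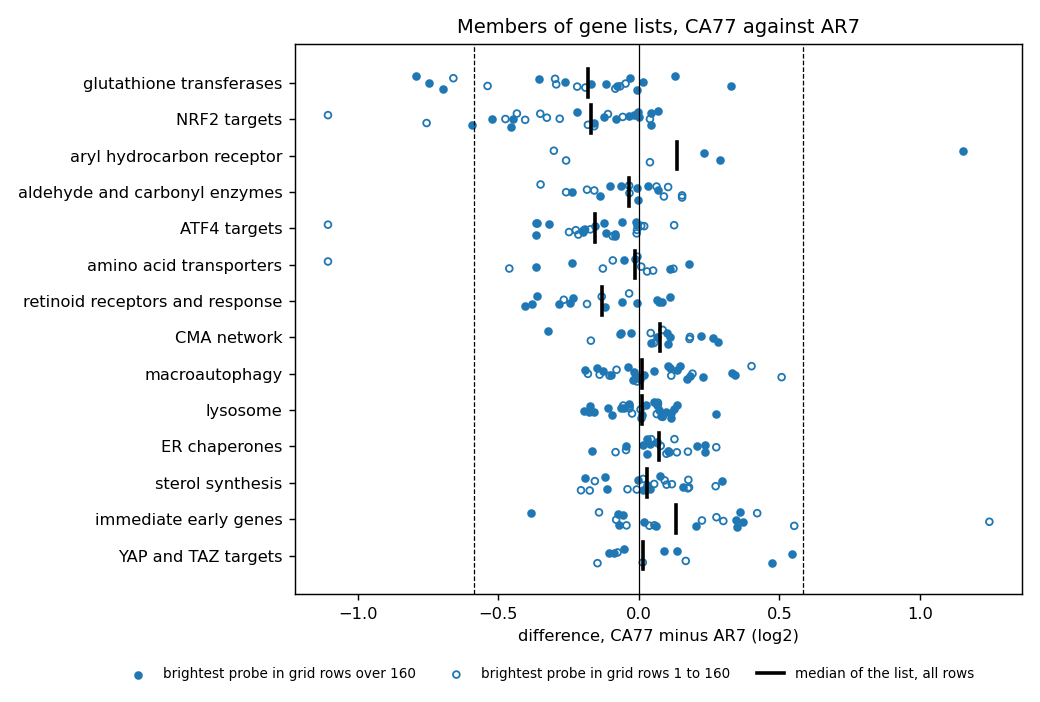
Difference between CA77 and AR7 (log2, horizontal axis) for the measured members of 14 gene lists, each point a gene by its brightest probe; filled points lie in grid rows over 160, open points in rows 1 to 160, black bars are list medians over all rows and dashed lines mark 1.5-fold. The medians of glutathione transferases (−0.18) and NRF2 targets (−0.17) lie to the left of those of the CMA network (0.08) and lysosome (0.01).

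ATF4 directs the response to shortage of amino acids and to stress of the endoplasmic reticulum. Of its 27 measured targets in all rows 24 were below 0, as were 54.2% of all genes, with a median of −0.15 (log2 difference). Of the 27, 4 were past 1.25-fold lower (7.26% of all genes). In rows over 160 all 15 measured were below 0 (55.1% of all genes), none by more than −0.37. Chac1, which degrades glutathione, read 13.41 untreated, 13.42 with AR7, 15.41 with CA39 and 13.05 with CA77 (−0.37). Sesn2, a stress-induced sensor that restrains mTOR, had 11.92 on AR7 and 11.56 on CA77 (−0.36). Slc3a2, the heavy chain of several amino acid exchangers, had 14.94 and 14.58 (−0.37), and the fourth was Slc7a11, given above. Outside this list, the glycine transporter Slc6a9 had 15.03 and 14.57 (−0.46, row 60) and 14.84 and 14.44 (−0.39, row 322), and both probes read highest on CA39, at 15.94 and 15.79. Chaperones of the endoplasmic reticulum did not follow, with 0 of 22 past 1.25-fold and a median of 0.07.

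Immediate early genes, which cells switch on within minutes of a stimulus, leaned towards CA77. Of 22 measured in all rows 7 were past 1.25-fold higher and 1 lower, beside 3.92% and 7.26% of all genes, with a median of 0.13 (log2 difference). In rows over 160 the median was 0.06, and 5 of 13 were past 1.25-fold higher and 1 lower. The growth-response factor Egr1 read 14.70 untreated, 14.24 with AR7, 13.68 with CA39 and 14.58 with CA77 (0.34). Fos, which forms the factor AP-1 with Jun proteins, had 7.90 on AR7 and 8.32 on CA77 (0.42) with an SD of 0.14 over repeat spots. Egr2 had 8.08 and 9.33 (1.25) with a single spot in row 19. For Egr1 and Fos, AR7 stood below the untreated array and CA77 near it, whereas Fosl1, another AP-1 member, was lower with CA77, at 13.51 on AR7 and 13.12 on CA77 (−0.38).

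The matricellular genes Ccn1 and Ccn2, secreted products known as targets of the coactivators YAP and TAZ, were both higher with CA77. Ccn1 read 14.35 untreated, 14.08 with AR7, 13.21 with CA39 and 14.62 with CA77 (0.55). Ccn2 read 14.73 untreated, 13.54 with AR7, 16.38 with CA39 and 14.02 with CA77 (0.47). CA39 was thus at the opposite ends of these genes, the lowest array for Ccn1 and the highest for Ccn2. Of 11 measured genes of that list these were the 2 past 1.25-fold (both higher, as were 3.92% of all genes), and another classical target, Ankrd1, had 0.17 in row 51.

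Of 28 measured genes of matrix glycoproteins and enzymes 3 were past 1.25-fold higher and 3 lower in all rows, beside 3.92% and 7.26% of all genes, with a median of 0.02 (log2 difference). The matrix protease gene Mmp10 read 7.18 untreated, 8.39 with AR7, 5.72 with CA39 and 7.23 with CA77 (−1.16). Mmp9, a gelatinase, had 9.54 on AR7 and 9.0 on CA77, a difference of −0.54 with an SD of 0.08 over 9 repeat spots. Lum, the collagen-binding proteoglycan lumican, had 13.98 and 14.91 (0.94) in row 46 with a single spot. The fibulins, which bind elastic fibres, went both ways, with 10.73 and 10.38 for Fbln2 (−0.35) and 9.99 and 10.41 for Fbln5 (0.41). Plod1, a lysyl hydroxylase of collagen, had 0.33 by its brighter probe and −0.06 by the other.

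Genes with a symbol and 1 measured probe in rows over 160 were ranked by their difference, and Cyp1b1 and Mmp10, given above, are among them. The 10 lowest with a symbol ran from −1.81 for Snap91 to −0.92 for Gpr176. Snap91, a clathrin assembly protein of neurons, read 6.37 untreated, 8.72 with AR7, 4.83 with CA39 and 6.90 with CA77. Pgc (−1.70), Tmem88 (−1.69), Ceacam20 (−1.30), Fcrlb (−1.22) and 4930448F12Rik (−1.07) had AR7 levels between 7.54 and 8.39 and CA77 levels between 6.40 and 6.70. A brighter probe of Ceacam20 in row 48 had a difference of −0.01. Clip3, a microtubule-linked protein of the trans-Golgi network, was brighter and read 9.73 untreated, 11.55 with AR7, 10.95 with CA39 and 9.93 with CA77 (−1.62). Dppa5a, a gene of pluripotent cells, read 8.62 untreated, 11.26 with AR7, 9.33 with CA39 and 10.12 with CA77 (−1.14). Gpr176, an orphan receptor, had 9.84 on AR7 and 8.91 on CA77.

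The 10 highest ran from 0.65 for Gtpbp3 to 1.21 for Bbs12. Bbs12, which helps assemble a complex that carries cargo to cilia, read 12.19 untreated, 12.07 with AR7, 11.81 with CA39 and 13.28 with CA77, so CA77 alone stood apart. Col10a1, a collagen of hypertrophic cartilage, had 6.96 on AR7 and 7.91 on CA77 (0.95), and Gmpr, a purine-salvage reductase, had 8.35 and 9.04 (0.69). Gdf3, a growth factor of the TGF-beta family, had 8.51 and 9.20 (0.69), and Catsperb, a subunit of a sperm calcium channel, had 7.41 and 8.09 (0.68). Spred1, an inhibitor of ERK signalling, was not among these 10. It had 0.63 by a dim probe in row 343 but 0.20 and −0.12 by brighter probes in rows 81 and 19. Other probes of a gene, where printed, did not always repeat the size. H2ac19, a histone gene with many near-identical copies, had 0.65 in row 233 but −0.03 with a far brighter probe in row 39, and Slc4a7 had 0.65 in row 336 and 0.17 in row 28. Trappc2, a vesicle-tethering subunit, had 0.68 and 0.41, the second in row 11.

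Genes with 2 or more measured probes have a repeat by a different sequence, and rows over 160 held 2246 of them. The brightest probe was past 1.25-fold in 195 of these genes. Genes with agreeing probes were picked from them because their probes agreed. In rows over 160, 8 genes were past 1.25-fold higher and 32 lower with every agreeing probe, and 27 of these 40 carry only a coordinate name for a presumed noncoding transcript, as do 822 of the 2246 genes with at least 2 measured probes. At 1.5-fold 0 such genes were higher and 1 was lower, a coordinate-named transcript. Those with a symbol were 10 lower and 3 higher.

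Among the lower ones, Rpgrip1, a protein of the photoreceptor cilium, read 14.13 untreated, 13.95 with AR7, 13.54 with CA39 and 13.27 with CA77, with differences of −0.69 and −0.50 by its probes. Prl2c5, a secreted prolactin-family hormone with near-identical copies, read 16.25 untreated, 17.40 with AR7, 12.52 with CA39 and 16.90 with CA77, with −0.50 and −0.55. Tnfaip2, a gene induced by tumour necrosis factor, had 10.72 on AR7 and 10.30 on CA77 (−0.42 and −0.40), the CA77 level being that of the untreated array, 10.28. Slc4a4, a sodium bicarbonate cotransporter, had −0.38 and −0.33 with its other probe at 0.02. Gpr137b, a lysosomal membrane protein, had 14.67 on AR7 and 14.34 on CA77 (−0.33 with each of 2 probes). The others were Lcn6 (−0.42 and −0.38), Kng1 (−0.42 and −0.44), Zmynd15 (−0.39 and −0.49), Gsta3 and Mgst1.

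The 3 higher genes were Mindy2, Pitpnc1 and Zfp467. Mindy2, a deubiquitinating enzyme, had 11.27 on AR7 and 11.67 on CA77 (0.41) and 8.27 and 8.71 (0.45). Pitpnc1, a phosphatidylinositol transfer protein, had 8.04 and 8.42 (0.38) and 7.52 and 7.94 (0.42). Zfp467, a zinc finger protein, had 10.79 and 11.13 (0.34), with 0.08 and 0.45 by its other probes in rows over 160.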

How the data were processed

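Total RNA of the cultures was labelled with Cy3 and hybridised to Agilent 8x60K mouse arrays (design build mm9). Spots were read by the authors in Feature Extraction 10.7.3.1, and the deposited files hold linear median intensity and local background for each spot. The deposited series table equals the background-subtracted intensity. The submitters' processing notes name RMA and oligo, whose values were not used here.

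Intensities were background-corrected with normexp (offset 0, all spots) in limma 3.58.1 (R 4.3.3). Controls were dropped, and quantile normalization over the 4 arrays and a log2 transformation followed. Spots flagged as outliers on the AR7 or CA77 array were dropped after that. No spot was saturated. Spots of a probe were averaged, and a probe counted as measured when more than 50% of its spots passed the background mark on both arrays. The brightest measured probe stood for a gene. A gene had agreeing probes when at least 2 were past the fold the same way and none was past 0.07 (log2) the other way. Accessions were matched to RefSeq (GRCm38.p6), which named 27656 of 55681 probes. The scripts were tested on simulated data.

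Named genes were the CMA network, those with agreeing probes, the 10 highest and 10 lowest single-probe genes and list members past 1.5-fold, and not every gene so covered is printed. Other list members below that size are also named, many of them chosen after their values were seen. Members and lists were chosen with earlier results of these data known. Alternatives comprised 12 planned ones and 4 chosen after seeing the data, namely 1.25-fold, 1.25-fold with all grid rows, and the centred forms of 2 scalings.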

Additional observations from a re-analysis of the deposited data

How the results depend on the processing

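No paired analysis was possible because each compound has 1 array, and no array could be left out. Counts of genes past 1.5-fold moved most. The higher and lower counts, 50 and 121 as reported, were 82 and 287 with 75th percentile scaling, 84 and 283 with that scaling centred, 105 and 248 with the processed signal, 195 and 392 with all grid rows, 472 and 693 without the filter on dim probes, 5 and 33 in the upper part of mean level, 12 and 37 at 2-fold, 418 and 860 at 1.25-fold, and 848 and 1569 at 1.25-fold in all rows. A background offset of 50 left 30 higher. The deposited table, unscaled between arrays, gave 30 and 1286 with a median of −0.26 over all genes, and 86 and 282 once centred. The share of higher among called genes, 29.2%, became 2.28% in the deposited table, 40.5% without the dim filter and 13.2% at high levels. Genes with agreeing probes past 1.5-fold, 1 in the main setting, numbered 0 with 2-array quantiles, cyclic loess, block medians, offset 50, 2-fold or high levels, 3 with the processed signal, 5 with 75th percentile scaling or the centred deposited table, 8 in all rows, 9 without the dim filter, 40 at 1.25-fold, 95 at 1.25-fold in all rows and 63 in the deposited table. The SD over genes, 0.21, was 0.33 without the dim filter and moved little in 12 of 13 alternatives. The cause of these moves was not tested. Relative to the median of all genes, list medians moved in 8 of 156 cases and named genes in 30 of 205. The sign changed for the medians of amino acid transporters (−0.23 to 0.0019) and lysosome (−0.01 to 0.04) and for Lamp2 (−0.06 to 0.10). Cyp1b1 ranged from 1.11 to 1.25, Gm3776 from −0.78 to −0.71, Gsta3 from −0.71 to −0.60, Hmox1 from −0.59 to −0.56 and the NRF2 list from −0.15 to −0.03. Slc38a1, with −0.56 on this scale by its probe in row 292, was −0.11 by its brightest probe in all rows. Mmp10 ranged from −1.56 to −0.93.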

Other observations

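In grid rows 1 to 160 a few genes had large differences by 1 probe, which the other probes of Peg3 and H19 did not repeat. The imprinted gene Peg3 had 7.04 on AR7 and 14.21 on CA77 in row 135 but 8.10 and 7.80 in row 169. The imprinted noncoding RNA H19 had 9.86 and 6.96 in row 14 but 7.92 and 7.82 in row 372. Col5a2, a fibrillar collagen chain, had 8.48 and 9.65 in row 119 by a single measured probe. Cacna1h, a calcium channel subunit, was lower with CA77 by probes in rows 70 and 90, with −2.62 and −0.76. The acute-phase gene Hp, at 11.60 on the untreated array and 12.98 on CA39, had 9.01 on AR7 and 8.98 on CA77.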
